A study of Caenorhabditis elegans with 12 samples.

Results

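The 70 protein-coding genes of C. elegans whose WBcel235 name starts with mrpl- or mrps- were examined in RNA sequencing counts of whole animals. They were taken by name from 19901 protein-coding genes among the 46904 gene identifiers of the count tables. Of the 70 genes, 41 are named for the large subunit of the mitochondrial ribosome (mrpl-) and 29 for the small subunit (mrps-). Subunits below are taken from these names, and the place of each protein in the ribosome was not examined. The libraries came from last larval stage (L4) animals of the Bristol N2 strain (WT) and of miR-85(n4117), which carries a deletion of the microRNA gene mir-85 that also removes part of F49E12.8. Each strain was sampled after 47 hrs at 20°C, and after 44 hrs at 20°C with 3 hrs of heat shock at 35°C, with 3 replicates in each of the 4 groups. All groups were grown and extracted by 1 protocol, and the labels name no other agent.

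Mitochondria keep a small genome of their own, and the few proteins it encodes, all subunits of the respiratory chain and the ATP synthase, are made on ribosomes inside the organelle. The RNA of these ribosomes is transcribed from mitochondrial DNA, while their proteins are encoded in the nucleus, translated in the cytosol and imported. Many of these proteins descend from those of the bacterial ribosome, and the rest have no bacterial counterpart and are called mitochondria-specific. In C. elegans, knockdown of mrps-5 and of other mitochondrial ribosomal protein genes lengthens lifespan and induces the mitochondrial unfolded protein response. By the numbering of the human homologs, 43 of the 70 genes have a bacterial counterpart and 26 are mitochondria-specific, while mrps-18C, listed beside a separate gene named mrps-18.C, was left in neither class. The labels do not separate tissues, so fewer cells of a type and less RNA per cell cannot be told apart in these values.

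Total counts per library ranged from 23871531 to 38586076,, of which 9505142 to 29652439 fell on protein-coding genes. WT replicate 3 at 20°C stood apart, with 65.5% of its counts on ribosomal RNA genes against 13.7% to 32.9% in the other libraries. The heat-inducible chaperone gene hsp-70 was at 2.46 to 57.1 CPM (read counts scaled to the size of the library, with TMM normalization) in the 6 libraries at 20°C and at 4139 to 5938 CPM in the 6 libraries at 35°C. F49E12.8 was at 3.02 to 6.20 CPM in the 6 WT libraries and at 0 to 0.415 CPM in the 6 mutant libraries. Both checks followed the labels. The file headers place WT replicates 2 and 3 at both temperatures in sequencing lane 8 and all other libraries in lane 3. No mutant library was in lane 8, so strain and lane cannot be fully told apart in the strain comparisons at either temperature.

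The genes of the mitochondrial ribosome were expressed within a narrow range of levels. Per kilobase of annotated exon, the mean level over the 12 libraries ran from 13.4 CPM for mrpl-42 to 74.2 CPM for mrpl-12, a ratio of 5.55, with a median of 34.6 CPM. The middle 50% of the genes lay between 28.8 and 40.3 CPM per kilobase, and 67 of the 70 were within 2-fold of the median. The 70 genes all lay above the median of the 15287 protein-coding genes tested (7.12 CPM per kilobase), the lowest at the 67.2 percentile and the highest at the 93.2 percentile. The 81 genes of cytosolic ribosomal proteins, which build the ribosomes outside the mitochondria, had a median of 2446 CPM per kilobase, 70.8 times that of the mitochondrial set.

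The 5 genes with the most counts per kilobase were mrpl-12, mrps-14, mrps-11, mrps-33 and mrpl-50. In bacteria and mammals the homolog of mrpl-12 forms the flexible stalk that recruits translation factors, and bacterial ribosomes carry several copies of that protein where other proteins are present once. The next 4 genes followed at 58.9 CPM per kilobase for mrps-14, 58.8 for mrps-11, 54.8 for mrps-33 and 53.4 for mrpl-50. The genes mrps-14 and mrps-11 belong to the head and the platform of the small subunit in bacteria. The ranges of these 4 genes over the 12 libraries overlapped one another and that of mrpl-12. The order of the 5 genes, with mrpl-12 first by its mean, is thus not resolved.

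At the other end were mrpl-42 at 13.4, mrps-31 at 15.7, mrpl-46 at 17.95, mrpl-48 at 20.4 and mrps-10 at 22.4 CPM per kilobase. The first 4 are mitochondria-specific, and mrps-10 has a bacterial counterpart. The annotation places mrpl-42 over lpl-1 on the same strand. Reads from exon stretches shared by both genes would be left out of the counts, so its level may be a lower estimate. Whether their exons overlap was not examined. The same may hold for mrps-16, mrps-27, mrps-18A, mrpl-1, mrps-15 and mrpl-44, which also overlap a protein-coding gene on the same strand. The order of the lowest genes depends on the length used. Per kilobase of coding length mrpl-48 was lowest at 23.6 CPM, followed by mrpl-37 at 26.9 and mrps-10 at 27.6, while mrpl-42 was at 28.84, mrpl-46 at 28.84 and mrps-31 at 29.6. The gene mrpl-12 had the highest mean by either length. By subunit the medians were 33.8 CPM per kilobase for the large and 35.5 for the small, and by origin 35.2 for genes with a bacterial counterpart and 32.02 for mitochondria-specific genes. The gene dap-3, whose human homolog is also a protein of the small subunit (MRPS29) but whose name leaves it out of the 70, was at 41.7 CPM per kilobase.

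**Figure D1:**
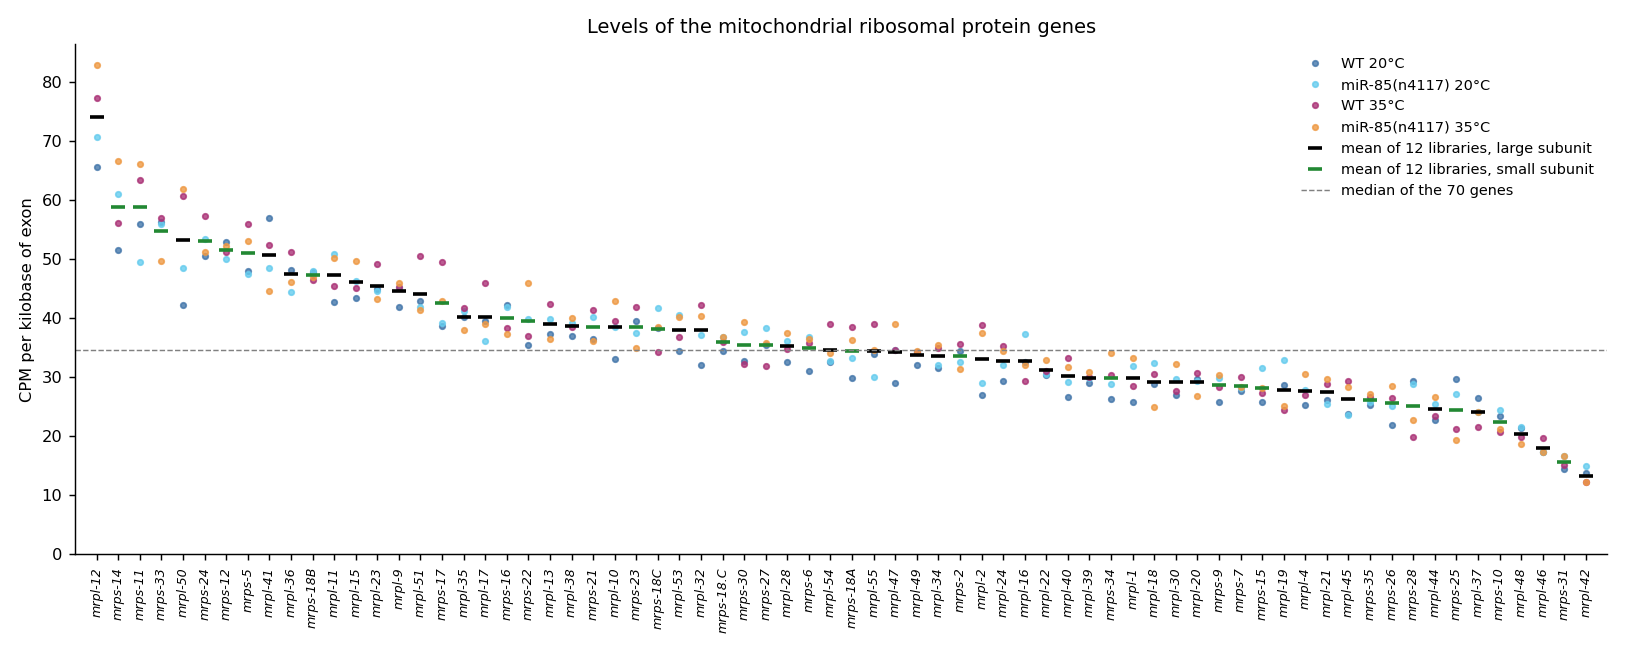
Level of each of the 70 genes in CPM per kilobase of exon (vertical axis), ordered from highest to lowest; dots are means of 3 libraries per group, bars are means of 12 libraries colored by subunit, and the dashed line is the median of 34.6. Levels fall gradually from mrpl-12 at 74.2 to mrpl-42 at 13.4, with both subunits mixed along the order.

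The genes lie on the 5 autosomes, with 15 on chromosome I, 12 on II, 22 on III, 11 on IV and 10 on V. In C. elegans many genes are transcribed together with their neighbours as operons, and the downstream genes typically start a short distance after the gene before them. Of the 70 genes, 35 started within 1000 bases after the end of a protein-coding gene on the same strand, a position that an operon would give, and 21 of these within 150 bases, among them mrps-27, which starts inside hinf-1. The pairs include mrpl-4, which starts 105 bases after the end of mrps-2, and mrps-22, which starts 105 bases after the end of dap-3, so that in each pair both genes encode proteins of the mitochondrial ribosome. Other upstream neighbours belong to other machinery, such as cct-2 of the cytosolic chaperonin, 25 bases before mrpl-50, and rpn-3 of the proteasome, 410 bases before mrpl-32.

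Across libraries the genes moved little. For a single gene the highest of the 12 libraries exceeded the lowest by 1.22-fold (mrps-12) to 2.10-fold (mrps-22), with a median of 1.52-fold. The set summed to 2171, 2189 and 1803 CPM in WT replicates 1, 2 and 3 at 20°C. In miR-85(n4117) at 20°C the sums were 2169, 2182 and 2191 CPM. WT at 35°C gave 2269, 2191 and 2165 CPM, and miR-85(n4117) at 35°C gave 2324, 2501 and 1930 CPM. The groups overlapped, and the low sums came from WT replicate 3 at 20°C and from miR-85(n4117) replicate 3 at 35°C.

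In those libraries most of the genes were low together. In WT replicate 3 at 20°C only 10 of the 70 genes were above their own mean over the 12 libraries, and the median gene was −0.26 from its mean on the log2 scale. In miR-85(n4117) replicate 3 at 35°C 10 of the 70 were above their mean as well, with a median of −0.18, whereas in replicate 2 of that group 57 were above it, with a median of 0.18. WT replicate 3 at 20°C, with its high ribosomal RNA share, also had the highest sum of cytosolic ribosomal protein genes (145281 CPM against 86227 to 133622 CPM in the other 11 libraries). In miR-85(n4117) replicate 3 at 35°C that sum was 118559 CPM, against 107154 and 99775 CPM in replicates 1 and 2. The part that either had in the results was not tested, and the values that these libraries moved most are given below with and without them. The balance between the subunits, by name, was steadier than the sums. The summed CPM of mrpl- genes was 1.19 to 1.29 times that of mrps- genes in the 12 libraries.

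**Figure D2:**
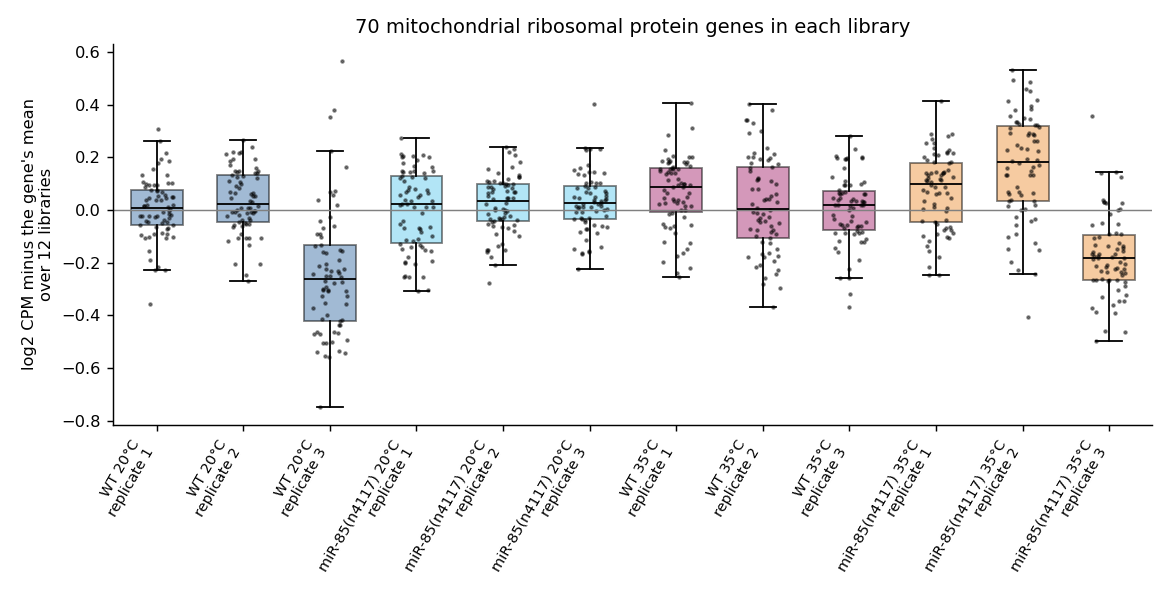
For each library, the log2 CPM of each of the 70 genes minus that gene's mean over the 12 libraries (vertical axis); boxes show the quartiles and the median, whiskers reach 1.5 times the box, and dots are genes. WT replicate 3 at 20°C (median −0.26) and miR-85(n4117) replicate 3 at 35°C (median −0.18) lie below the other libraries.

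To ask whether heat shock changed the messages of the mitochondrial ribosome in WT, the 3 libraries at 35°C were compared with the 3 at 20°C. Changes were found in 5 of the 70 genes, none of them as large as 2-fold. The genes mrpl-2, mrpl-50 and mrpl-32 of the large subunit rose, and mrps-28 and mrps-25 of the small subunit fell. With the replicate number as a block, mrpl-2, mrpl-50 and mrps-28 passed, and mrpl-32 and mrps-25 did not. All 70 genes passed the filter on low counts. In edgeR's quasi-likelihood test, with p adjusted by Benjamini-Hochberg over 16585 genes, 22.2% of all genes tested had an adjusted p under 0.05, 12.9% higher and 9.29% lower at 35°C, beside 7.14% of the 70. Under the limits of the study's methods (a log2 fold change of at least 1, a mean normalized count over 10 and an adjusted p under 0.05), 12.2% of all genes and 0 of the 70 were called.

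The gene mrpl-2 (chromosome IV, 773237 to 776655) encodes the homolog of the bacterial protein that lies beside the peptidyl transferase centre. It was at 30.3, 30.5 and 26.7 CPM in WT at 20°C and at 40.6, 44.6 and 40.3 CPM at 35°C. All 3 heat shocked libraries lay above all 3 controls. The log2 fold change was 0.52 (SE 0.115, n = 3 against 3), with an adjusted p of 0.00953 in edgeR's quasi-likelihood test. An exact permutation test gave p = 0.1, two-sided, the smallest that 3 libraries against 3 allow, for this gene and for each of the other 4.

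The gene mrpl-50 (chromosome II, 8929841 to 8930940), mitochondria-specific, was at 47.2, 43.6 and 36.01 CPM in WT at 20°C and at 69.5, 56.6 and 56.2 CPM at 35°C. The groups did not overlap, and the lowest control was replicate 3. Its log2 fold change was 0.52 (SE 0.146, edgeR adjusted p = 0.0269). For mrpl-32 (chromosome III, 8449757 to 8450519), whose mouse and yeast homologs are matured by a mitochondrial inner membrane protease before they enter the ribosome, the CPM were 23.7, 21.8 and 18.8 at 20°C and 30.6, 26.6 and 27.4 at 35°C. The log2 fold change was 0.39 (SE 0.123, edgeR adjusted p = 0.0412), and again no heat shocked library was as low as a control.

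The gene that fell most was mrps-28 (chromosome V, 19644239 to 19645676), the homolog of bacterial ribosomal protein S1 by its human name. It was at 19.7, 18.2 and 18.6 CPM in WT at 20°C and at 13.5, 12.3 and 12.3 CPM at 35°C. Each group was tight and the groups were far apart. Its log2 fold change was −0.57 (SE 0.141, edgeR adjusted p = 0.0162). For mrps-25 (chromosome IV, 1056892 to 1057619), mitochondria-specific, the CPM were 16.6, 17.3 and 22.3 at 20°C and 13.6, 14.5 and 12.1 at 35°C, and the log2 fold change was −0.48 (SE 0.144, edgeR adjusted p = 0.0353). Here the highest control was replicate 3, the library in which most of the other genes were low.

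These calls did not all hold when the fit was changed. The same-numbered WT libraries deviated together, and with the replicate number as a block 2 genes were higher (mrpl-2 and mrpl-50) and 1 lower (mrps-28), while mrpl-32 had an adjusted p of 0.0714 and mrps-25 of 0.0953 in edgeR. Without WT replicate 3 at 20°C, or without WT replicate 2 at 20°C, 1 gene was higher (mrpl-2) and 1 lower (mrps-28). The call of mrps-28 was lost without WT replicate 1 at 20°C (adjusted p = 0.0550 in edgeR). That of mrps-25 was also lost without WT replicate 1 or 3 at 35°C or miR-85(n4117) replicate 2 or 3 at 20°C, that of mrpl-50 also without WT replicate 1 at 35°C, and that of mrpl-32 in 8 of the 12 fits that left out a library. Without WT replicate 1 at 35°C, mrpl-40, another mitochondria-specific gene of the large subunit, was called higher (0.43, adjusted p = 0.0313 in edgeR) beside mrpl-2. Over 21 settings, mrpl-2 and mrps-28 were each called in 20, mrpl-50 in 16, mrps-25 in 12 and mrpl-32 in 10. The share of all genes that passed also moved over these settings, between 9.27% and 26.3%.

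The other 65 genes did not pass the test. Over all 70, the log2 fold changes ran from −0.57 to 0.52 with a median of 0.09, beside 0.04 over all genes tested, and 55 of the 70 were positive. Without WT replicate 3 at 20°C the median was 0.01. The 95% confidence intervals of all 70 genes lay between −0.88 and 0.84 on the log2 scale, and so within a 2-fold change either way. For 39 of the 70 the interval lay within 0.5 of 0. Among all genes tested, 40.8% had a log2 fold change larger in size than that of every gene of the set.

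The same held beside protein-coding genes of like abundance. Of 6169 protein-coding genes whose mean count lay in the range of the 70, 20.96% had an adjusted p under 0.05. Their middle 50% spanned 0.62 on the log2 scale, while the middle 50% of the 70 genes spanned 0.17. At an unadjusted p under 0.05 stood 9 of the 70 genes and 37.1% of all genes tested. Library values at 35°C lay wholly above those at 20°C for 17 of the 70 genes and wholly below for 4, beside 22% and 18.3% of all genes tested. Without WT replicate 3 at 20°C these were 18 and 13 of the 70, beside 29% and 25.5%.

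By subunit, 3 of the 41 large subunit genes (7.32%) rose and none fell in WT. Of the 29 small subunit genes, 2 (6.90%) fell and none rose. Beside these, 22.2% of all genes tested passed. The medians were close, at 0.09 for the large and 0.07 for the small subunit. Genes with a bacterial counterpart had a median of 0.11 and mitochondria-specific genes of 0.07. All 3 genes that rose were among the 35 in a position that an operon would give (8.57%), and both that fell were among the other 35 (5.71%). These splits rest on 5 genes, of which mrpl-32 and mrps-25 did not pass with the replicate number as a block. The medians of those groups were 0.09 each. The differences between these groups were not tested.

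The upstream neighbours of the genes that rose had values of their own. For rpn-3, the proteasome gene before mrpl-32, the log2 fold change in WT was 0.65 (SE 0.126, edgeR adjusted p = 0.0049). For cct-2, before mrpl-50, it was 0.48 (SE 0.168), with an adjusted p of 0.0622 from edgeR that did not pass. F56B3.9, before mrpl-2, had too few counts to be tested. Of the 34 neighbours tested, 3 rose and 1 fell in WT, where 22.2% of all genes tested passed. In miR-85(n4117) rpn-3 was the 1 neighbour to pass, where 15.2% of all genes did, at 0.61 (SE 0.126, edgeR adjusted p = 0.00818), while mrpl-32 was at 0.11 there without passing. In the mutant cct-2 was at 0.41 (edgeR adjusted p = 0.123) and mrpl-50 at 0.36. The other neighbours that rose in WT, icln-1 and W04B5.5, stand before mrpl-42 and mrpl-30, whose own log2 fold changes were −0.17 and 0.04. The neighbour that fell, zipt-11, stands before mrpl-24, at 0.27.

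The same question was asked in miR-85(n4117). There mrps-25 was the 1 gene of the 70 that changed. Of all genes tested, 15.2% had an adjusted p under 0.05, 9.35% higher and 5.88% lower, beside 1.43% of the 70, and 8.78% of all genes and 0 of the 70 passed the limits of the study. The gene mrps-25 was at 17.2, 16.5 and 17.7 CPM at 20°C and at 12.99, 12.9 and 10.9 CPM at 35°C in the mutant. All heat shocked libraries lay below all controls, in the mutant as in WT. The log2 fold change was −0.48 (SE 0.143, edgeR adjusted p = 0.0445; exact permutation test, two-sided p = 0.1). The call was near its limit and held in 8 of 21 settings, over which 8.40% to 18.1% of all genes passed. It was lost without any 1 of the 6 miR-85(n4117) libraries, with log2 fold changes of −0.41 to −0.53, and without WT replicate 2 at 20°C or WT replicate 3 at 35°C (−0.49 and −0.48). With the replicate number as a block it was lost as well (−0.48, adjusted p = 0.111 in edgeR), although same-numbered mutant libraries did not all deviate together.

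The other genes that changed in WT had these values in the mutant. For mrpl-2 the CPM were 30.7, 31.5 and 31.7 at 20°C and 40.9, 44.3 and 35.9 at 35°C, with a log2 fold change of 0.37 (SE 0.115, edgeR adjusted p = 0.0532). Without miR-85(n4117) replicate 3 at 35°C the gene passed the test. For mrps-28 they were 18.4, 18.5 and 18.7 at 20°C and 15.4, 16.9 and 11.6 at 35°C, a log2 fold change of −0.34 (SE 0.140, edgeR adjusted p = 0.126). The groups did not overlap for either gene, and the replicate lowest after heat shock was replicate 3 for both.

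The gene mrpl-50 was at 42.6, 51.3 and 51.7 CPM in the mutant at 20°C and at 63.7, 65.2 and 57.2 CPM at 35°C, a log2 fold change of 0.36 (SE 0.146, edgeR adjusted p = 0.127). For mrpl-32 the groups overlapped, with 22.8, 25.9 and 25.8 CPM at 20°C and 27.7, 25.1 and 27.7 CPM at 35°C, and the log2 fold change was 0.11 (SE 0.122, edgeR adjusted p = 0.576).

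**Figure D3:**
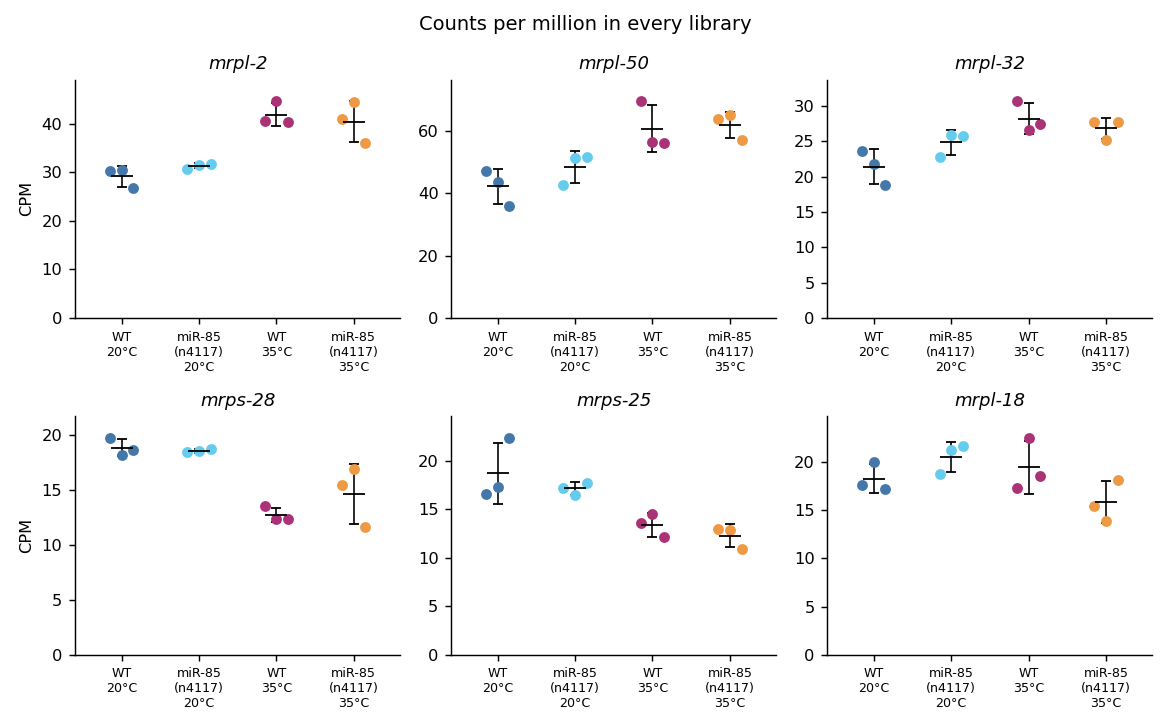
CPM (vertical axis, from 0) of 6 genes in every library by group; dots are libraries and bars are the mean and SD of 3 libraries. In WT, mrpl-2, mrpl-50 and mrpl-32 were higher and mrps-28 and mrps-25 lower at 35°C with no overlap, while mrpl-18 at 35°C was 17.3 to 22.5 CPM in WT and 13.9 to 18.2 CPM in miR-85(n4117).

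Over the 70 genes the log2 fold changes in miR-85(n4117) ran from −0.48 for mrps-25 to 0.42 for mrps-11, with a median of 0.03 beside 0.05 over all genes tested. The median was 0.13 without miR-85(n4117) replicate 3 at 35°C and −0.06 without replicate 2. All 70 intervals lay within a 2-fold change either way, between −0.80 and 0.82, and 50 of the 70 within 0.5 of 0. At an unadjusted p under 0.05 stood 7 of the 70 genes and 30.4% of all genes tested. Of 6169 protein-coding genes of like abundance, 11.7% had an adjusted p under 0.05. Library values at 35°C lay wholly above those at 20°C for 6 genes and wholly below for 5, beside 21% and 17.6% of all genes tested. Without miR-85(n4117) replicate 3 at 35°C these were 35 and 6 of the 70, beside 26.9% and 24.1%.

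**Figure D4:**
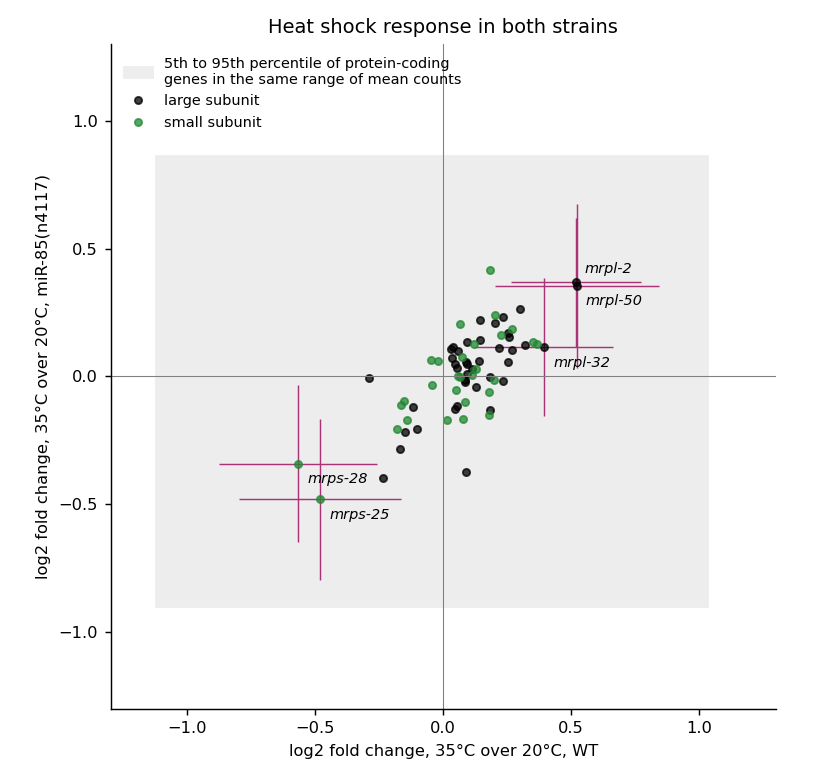
Log2 fold change of 35°C over 20°C in WT (horizontal axis) and in miR-85(n4117) (vertical axis) for the 70 genes; lines are 95% confidence intervals of the 5 genes with an adjusted p under 0.05 in WT, and the grey box spans the 5th to 95th percentile of protein-coding genes of like mean count. The 70 genes lie between −0.57 and 0.52 in WT and between −0.48 and 0.42 in the mutant, well inside the grey box.

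Whether the response to heat shock differed between the strains was tested as the interaction of strain and temperature. No gene of the 70 had an adjusted p under 0.05 in edgeR, nor did any of the 16585 genes tested (0%), and DESeq2 called none of the 70. At an unadjusted p under 0.05 stood 1 of the 70 genes and 2.27% of all genes. The difference of log2 fold changes (miR-85(n4117) minus WT) ran from −0.46 to 0.28, with a median of −0.08 beside 0.02 over all genes, and 50 of the 70 were negative. Without miR-85(n4117) replicate 3 at 35°C the median was 0.04. The 70 intervals lay between −0.94 and 0.85, so a difference of 2-fold or more lay outside each of them, and 16 of the 70 lay within 0.5 of 0.

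The gene with the smallest p was mrpl-18 (chromosome III, 8145015 to 8145974). In bacteria its homolog binds 5S ribosomal RNA, and in human cells a form of MRPL18 made under stress has been found in cytosolic ribosomes. It was at 17.6, 20.0 and 17.2 CPM in WT at 20°C and at 17.3, 22.5 and 18.6 CPM at 35°C. In miR-85(n4117) it was at 18.8, 21.3 and 21.6 CPM at 20°C and at 15.5, 13.9 and 18.2 CPM at 35°C. The temperatures overlapped in WT and did not overlap in the mutant. The difference between the responses was −0.46 on the log2 scale (SE 0.206, unadjusted p = 0.046, adjusted p = 1.0 in edgeR) and did not pass the test. The next genes were mrps-21 at −0.33 (SE 0.171) and mrpl-37 at 0.28 (SE 0.173).

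The strains were then compared at each temperature. At 20°C none of the 70 genes differed between miR-85(n4117) and WT, at an adjusted p or at an unadjusted p under 0.05, by edgeR's quasi-likelihood test, and DESeq2 called none. Of the 15349 genes tested, 0.0521% had an adjusted p and 9.68% an unadjusted p under 0.05. The log2 fold changes ran from −0.23 to 0.30 with a median of 0.09, beside 0.01 over all genes tested. The median was −0.01 without WT replicate 3. All intervals lay between −0.64 and 0.84, and 50 of the 70 within 0.5 of 0.

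The smallest p at 20°C belonged to mrpl-47, mrpl-1 and mrps-6, the homologs of bacterial proteins at the exit of the peptide tunnel, in the L1 stalk and in the platform of the small subunit. For mrpl-47 the CPM were 26.9, 29.2 and 24.6 in WT and 34.2, 31.1 and 30.8 in miR-85(n4117), a log2 fold change of 0.25 (SE 0.116, edgeR adjusted p = 0.540). The log2 fold changes of mrpl-1 and mrps-6 were 0.30 (SE 0.140) and 0.24 (SE 0.122). In all 3 the strains did not overlap. That was so for 9 of the 70 genes with the mutant higher and for 2 with the mutant lower, beside 9.19% and 8.23% of all genes tested. Without WT replicate 3 these were 9 and 7, beside 15% and 12.8%.

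At 35°C none of the 70 genes differed between the strains at an adjusted p or at an unadjusted p under 0.05 in edgeR, and DESeq2 called none. Of 15803 genes tested, 0.019% had an adjusted p and 2.38% an unadjusted p under 0.05. The log2 fold changes ran from −0.30 for mrpl-18 to 0.31 for mrps-22, with a median of 0.03 beside 0.02. Without miR-85(n4117) replicate 3 the median was 0.11. The intervals lay between −0.72 and 0.90, and 31 of the 70 within 0.5 of 0.

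The smallest p at 35°C belonged to mrpl-51, mrpl-17 and mrps-23. For mrpl-51, mitochondria-specific, the CPM were 34.1, 42.5 and 34.3 in WT and 30.7, 31.4 and 28.6 in miR-85(n4117), a log2 fold change of −0.29 (SE 0.151, edgeR adjusted p = 0.995). For mrpl-17, with a bacterial counterpart, the log2 fold change was −0.24 (SE 0.136), and for mrps-23, mitochondria-specific, −0.27 (SE 0.160). In mrpl-51 and mrpl-17 all mutant libraries lay below all WT libraries, and in mrps-23 the strains overlapped.

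In 10 of the 70 genes (14.3%) all 3 heat shocked mutant libraries lay below all 3 heat shocked WT libraries, and in none did they lie above, beside 3.58% and 3.42% of all genes tested. The 10 genes were mrpl-51, mrpl-17, mrpl-13, mrps-17, mrps-33, mrpl-46, mrpl-23, mrps-2, mrpl-55 and mrpl-36, 7 of the large and 3 of the small subunit. Their log2 fold changes were small, from −0.29 to −0.15, and none passed the test. Strain and sequencing lane cannot be fully told apart in this split. The same-numbered libraries of the strains deviated together at 35°C, and with the replicate number as a block again no gene had an unadjusted p under 0.05. Leaving out a mutant library cannot undo this split, and can only add genes on either side. Without miR-85(n4117) replicate 3 at 35°C, an alternative added after the data had been seen, the mutant lay wholly above WT in 27 of the 70 genes. It lay wholly below in 13, the 10 among them, beside 11.9% above and 10.5% below of all genes tested.

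The lifespan gene mrps-5 (chromosome V, 12563487 to 12565801), the most counted of the 70, was at 70.6 ± 3.14 CPM in WT at 20°C (SD, n = 3), 69.9 ± 2.22 in miR-85(n4117) at 20°C, 82.5 ± 5.24 in WT at 35°C and 78.3 ± 3.62 in miR-85(n4117) at 35°C. At 35°C every library was above every library of the same strain at 20°C. The log2 fold changes upon heat shock were 0.22 (SE 0.106, edgeR adjusted p = 0.151) in WT and 0.16 (SE 0.106, edgeR adjusted p = 0.335) in miR-85(n4117), neither past the test. For mrpl-12, the gene with the highest level per kilobase, they were 0.24 (SE 0.159) and 0.23 (SE 0.159), also without passing. For dap-3 they were 0.13 (SE 0.184) and 0.10 (SE 0.184).

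The other parts of mitochondrial translation were read from lists of genes. Beside them, 22.2% of all genes tested passed in WT and 15.2% in miR-85(n4117). None of 6 genes of ribosome assembly and dap-3 passed the test in either strain, with median log2 fold changes of 0.19 in WT and 0.13 in miR-85(n4117). None of 6 translation factors passed, with medians of −0.02 and 0.01, and of −0.20 in WT without replicate 3 at 20°C and 0.14 in the mutant without replicate 3 at 35°C. These include tufm-1 and tufm-2, which bring aminoacyl-tRNA to the ribosome, and gfm-1, which moves it along the message. Of 10 mitochondrial aminoacyl-tRNA synthetases, which load tRNA with amino acids, none passed in WT (median 0.11) and nars-2 fell in the mutant (−0.63, SE 0.165, edgeR adjusted p = 0.0246; median of the list 0.01). In WT nars-2 was at −0.46 with an adjusted p of 0.0655. These calls moved with single libraries: nars-2 passed in WT without replicate 3 at 20°C and did not pass in the mutant without replicate 3 at 35°C.

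The transcripts of mitochondrial DNA had wider values than the nuclear genes of the ribosome. Both mitochondrial ribosomal RNAs had higher means at 35°C, with log2 fold changes of 0.55 and 0.60 in WT and 0.74 and 0.68 in miR-85(n4117), and neither passed the test. Their sum was 93997 CPM in miR-85(n4117) replicate 3 at 35°C and 36943 CPM in replicate 2. Ribosomal RNA was removed before sequencing, so these are the molecules left after removal. Of the 12 proteins encoded there, 1 fell in each strain and none rose, with medians of −0.29 and −0.48. That is 8.33% of the list, beside 22.2% of all genes tested in WT and 15.2% in the mutant. WBGene00010963 fell in WT from 445 ± 65.996 to 210 ± 36.03 CPM (SD, n = 3), which is a change of −1.08 on the log2 scale (SE 0.238, edgeR adjusted p = 0.00905). In miR-85(n4117) it was at −0.70 (SE 0.236, edgeR adjusted p = 0.0690). WBGene00010966 fell in the mutant (−0.82, SE 0.243, edgeR adjusted p = 0.0448) and was at −0.24 in WT. The 2 identifiers carry no gene name in the annotation. Of the 12 proteins, 2 fell in WT without replicate 3 at 20°C (median −0.51), and without miR-85(n4117) replicate 3 at 35°C 3 fell in the mutant (median −0.72), where the ribosomal RNAs then had a median of 0.27.

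Of 11 genes of the mitochondrial unfolded protein response, hsp-6 and timm-23 rose and dve-1 fell in WT. That is 27.3% of the list, beside 22.2% of all genes tested. The chaperone gene hsp-6, a standard reporter of this response, went from 317 ± 97.6 to 636 ± 47.6 CPM in WT (SD, n = 3), which is a change of 1.01 on the log2 scale (SE 0.219, edgeR adjusted p = 0.00869). In miR-85(n4117) it rose from 324 ± 25.2 to 644 ± 110 CPM, a log2 fold change of 0.99 (SE 0.219, edgeR adjusted p = 0.0116). It was the 1 gene of the list to pass there (9.09%), beside 15.2% of all genes tested. The translocase gene timm-23 rose by 0.52 (SE 0.144, edgeR adjusted p = 0.0262) and dve-1, which encodes a transcription factor of the response, was at −0.81 (SE 0.230, edgeR adjusted p = 0.0293) in WT. The call of dve-1 was lost without WT replicate 3 at 20°C, and those of hsp-6 and timm-23 were not. The other 8 genes did not pass in WT, and the medians were −0.08 in WT and −0.13 in the mutant, or 0.06 in the mutant without replicate 3 at 35°C.

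Among 81 cytosolic ribosomal protein genes, 1 rose in each strain, rpl-11.1 (0.60 in WT and 0.56 in the mutant). Of all genes tested, 22.2% passed in WT and 15.2% in the mutant. The list medians were 0.15 and 0.29. The WT count moved with WT replicate 3 at 20°C. Without it 20 of the 81 rose in WT and none fell, with a median of 0.40. Over the alternatives and left-out libraries, this fit included, 9.27% to 26.3% of all genes tested passed in WT. In the mutant the range was 8.40% to 18.1%. Whether the 20 of 81 exceed the share of all genes was not tested. Without WT replicate 3 at 20°C the mitochondrial set had 1 higher, 1 lower and a median of 0.01 in WT. In the mutant 4 rose without that WT library, which enters the shared estimate of the spread, and none without miR-85(n4117) replicate 3 at 35°C, where the median was 0.22.

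**Figure D5:**
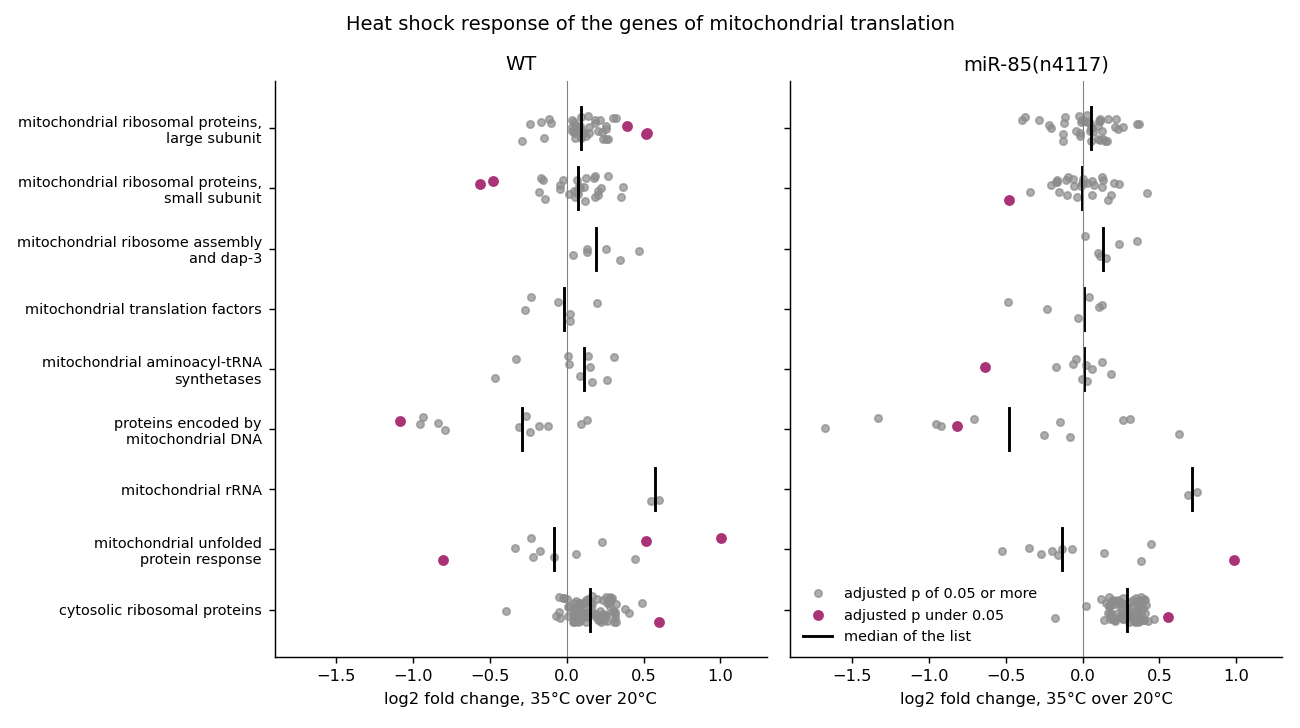
Log2 fold change of 35°C over 20°C (horizontal axes) in WT and in miR-85(n4117) for the genes of each list; grey dots did not pass, purple dots had an adjusted p under 0.05 in edgeR, and black bars are list medians. The mitochondrial ribosomal protein genes stay within −0.57 and 0.52. Proteins encoded by mitochondrial DNA reach −1.67 in the mutant, a value that did not pass, and hsp-6 is at 1.01 and 0.99.

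None of these lists held a gene that differed between the strains at either temperature by edgeR's test. At 20°C (miR-85(n4117) over WT) cytosolic ribosomal protein genes had a median of −0.31, synthetases of 0.17, translation factors of 0.15 and the assembly list of 0.08, where the mitochondrial set had 0.09. These medians were nearer to 0 without WT replicate 3, at −0.08, 0.06, −0.0048, −0.0043 and −0.01 in the same order. At 35°C the medians were −0.18 for cytosolic ribosomal protein genes, 0.05 for synthetases, 0.17 for translation factors and −0.02 for the assembly list, where the mitochondrial set had 0.03. Without miR-85(n4117) replicate 3 they were −0.25, 0.07, 0.32, 0.0021 and 0.11. Marker lists of tissues were read beside these values, where 22.2% of all genes tested passed upon heat shock in WT and 15.2% in the mutant. Upon heat shock in WT, intestine markers had 1 gene higher and 3 lower of 5, germline markers 1 higher of 8, sperm markers 1 higher and 1 lower of 7, neuron and hypodermis markers 1 lower of 5 each, and oocyte, muscle, pharynx and yolk markers none. The WT calls included 2 lower intestine markers and no germline marker without replicate 3 at 20°C. In the mutant 1 intestine, 3 neuron and 1 hypodermis markers were lower and 1 sperm and 1 muscle marker higher. No marker was at 0 in every library. Summed intestine markers were 1080 to 1258 CPM in WT at 20°C and 794 to 1126 CPM at 35°C, and 969 to 1001 and 574 to 942 CPM in the mutant. Summed yolk genes were 577 to 698 CPM in WT at 20°C and 1649 to 5348 CPM at 35°C, which do not overlap (median log2 fold change 2.76). In the mutant they were 60.9 to 754 CPM at 20°C, and 609, 3529 and 134 CPM in replicates 1, 2 and 3 at 35°C. Within that group replicate 2 was thus highest and replicate 3 lowest in yolk genes, as in the summed mitochondrial ribosomal protein genes. The orders in the other groups, each of 3 libraries, were as follows. In WT at 20°C yolk genes were highest in replicate 3, where the mitochondrial set had its lowest sum of that group (1803 CPM). In the mutant at 20°C they were highest in replicate 1, in a group whose sums differed little (2169, 2182 and 2191 CPM). In WT at 35°C they were highest in replicate 2, where the sum was in the middle (2191 CPM). The other marker lists were not ranked in this way, and the part of the marker genes in the values of the mitochondrial ribosomal protein genes was not tested.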

How the data were processed

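Total RNA of whole L4 animals was depleted of ribosomal RNA and sequenced by the authors from stranded libraries. The deposited files hold whole-number counts per gene, made by the authors with STAR and featureCounts 1.6.5 on WBcel235 (ce11) and, per the file headers, Ensembl release 100 with strand setting 2. Replicate numbers come from the labels. Ensembl release 115 gave names and positions for 46817 of 46904 identifiers. Counts were tested in R 4.3.3 with edgeR 4.0.16 (filterByExpr, TMM, robust quasi-likelihood, Benjamini-Hochberg over all genes tested). Heat shock and interaction tests used 12 libraries in 4 groups, and strain tests the 6 libraries of 1 temperature. SE was obtained from the log2 fold change and the F statistic (change over root of F), and intervals are at 95%. Depth limits single genes: the 70 genes had 110 to 3374 counts per library. Alternatives were DESeq2 1.42.0, RLE, nuclear protein-coding genes only, 2 other filters, other libraries in the fit, lane, replicate block and leaving out each library.

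The study calls the replicates biological, and no pair of libraries was counted as 1. Deviations from group means of same-numbered libraries correlated at 0.31, 0.12 and 0.36 between temperatures in WT, and at 0.49, 0.56 and 0.34 between strains at 35°C, so numbers were taken to pair these. Between temperatures in miR-85(n4117), and between strains at 20°C, they did not all pass 0.1. The members and lists were chosen with earlier results of these data known. Genes named are up to 6 with the lowest adjusted p per direction, otherwise the 3 with the smallest p, the 5 highest and 5 lowest levels, mrps-5, mrpl-12 and dap-3, and lowest adjusted p in lists; the 10 genes below WT at 35°C, mrps-11, mrps-22 and neighbouring genes were named after their values were seen. Of the listed names, 6 of 13 translation factors, 10 of 13 synthetases and 6 of 7 assembly genes matched the annotation. Proteins of mitochondrial DNA were taken by chromosome. Procedures were tested on simulated data. Sequences were not analysed here.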

Additional observations from a re-analysis of the deposited data

How the results depend on the processing

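In WT upon heat shock, 2 genes lower and 3 higher became 1 and 0 without a filter on low counts, and 1 and 1 in a fit of the 6 WT libraries alone. With the replicate block 1 gene was lower and 2 were higher. Leaving out each library in turn gave 1 to 2 lower and 1 to 3 higher. In miR-85(n4117), 1 gene lower became 0 with nuclear protein-coding genes only, with no filter, with at least 10 counts in every library, in a fit of the 6 mutant libraries and with the replicate block, and 0 to 1 with each library left out. No gene was higher there, but DESeq2 gave 1, and leaving out each library gave 0 to 1. The cause was not tested.

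With nuclear protein-coding genes only, the mean summed CPM of the 70 genes was 3025 in WT at 20°C, 3210 in miR-85(n4117) at 20°C, 3303 in WT at 35°C and 3320 in miR-85(n4117) at 35°C, against 2054, 2181, 2209 and 2252, since fewer counts enter the total. Per kilobase of coding length the median was 42.3 CPM against 34.6, since the untranslated parts are left out. Counts of genes called in the interaction and in both strain comparisons were 0 under every alternative and every library left out that was run, the replicate block included. Values of lists without single libraries were added after the data had been seen. At an unadjusted p under 0.05 with the block stood 2 lower and 5 higher in WT and 4 lower and 3 higher in miR-85(n4117). WT replicate 3 at 20°C had the fewest counts on the 70 genes, 22689 against 48511 to 102475 in the other libraries. What this lower depth did to the heat shock comparison in WT was not tested.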
